A study of Rattus norvegicus with 42 samples.

Results

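Rat GH4C1 cells that lack the long non-coding RNA Neat1 were compared with wild-type GH4C1 cells 34 h after a change of medium. GH4C1 is an established pituitary line of the lineage that makes growth hormone and prolactin. The comparison was defined by the labels and used 6 of the 42 libraries of the series, 3 wild-type (WT) and 3 knockout (KO). The WT group is labelled as untreated, and the KO group as Neat1 -/- made with CRISPR-Cas9. All cells grew in the same serum-containing medium, and fresh medium was given to synchronise them. The remaining 36 libraries, 18 WT and 18 KO, were taken at 10, 14, 18, 22, 26 and 30 h. The labels do not say whether the KO cells are 1 clone or several, nor whether replicates are separate cultures. The p-values here therefore weigh differences against the spread between samples of a group, which may be technical. A difference between cell stocks or preparations of the genotypes cannot be told apart from the deletion.

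Neat1 is the architectural RNA of paraspeckles, nuclear bodies that assemble around it and hold RNA-binding proteins. Without Neat1, paraspeckles do not form. Paraspeckles can retain certain transcripts in the nucleus, and in pituitary cells they have been studied for a role in the rhythmic release of RNA. The series was made to ask how the deletion changes rhythmic gene expression, and 34 h is its last time, one daily cycle after the first.

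The deposited tables name genes only by Ensembl identifier, and 0 of the 13776 identifiers could be paired with a symbol here. Genes are therefore described by how they behaved, and individual genes by identifier, with no function attached. Neat1 itself, the markers of the pituitary lineage and the markers of other cell types were not analysed here, so neither the genotype labels nor the cell type could be checked.

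The 34 h libraries held 34500833 to 68046287 counts in WT and 49526707 to 60171327 in KO. ENSRNOG00000043866 and ENSRNOG00000030478 together took 17.9% to 21.2% of the counts of the KO libraries at 34 h and 0.0604% to 0.335% of those of WT. Both were left out before libraries were scaled, since their counts lower the share of every other gene in KO. Levels are printed in CPM, which divides a gene's count by the library's remaining counts and puts all libraries on 1 size. TMM scaling was applied, a correction that assumes that most genes do not differ.

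WT replicate 1 at 34 h stood apart from its group. It had been named as outlying in advance, with earlier results of these data known. The values here describe how far apart it stood and are not separate evidence for that choice. Its log2 CPM values correlated at 0.9199 and 0.9378 over genes with those of WT replicates 2 and 3, which correlated at 0.9948 with each other. It correlated at 0.9417 to 0.947 with the 3 KO libraries. WT replicate 2 correlated with these at 0.9294 to 0.9358 and WT replicate 3 at 0.938 to 0.9438, so this measure set replicate 1 little nearer to KO. Between WT replicates 2 and 3, 58 genes differed by more than 2-fold, against 3029 and 2324 between replicate 1 and either of them. Replicate 1 lay more than 2-fold above both for 1567 genes and more than 2-fold below both for 619. The next most deviant 34 h library, KO replicate 1, had 39 and 5 such genes against its own group.

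WT replicate 1 lay nearer to KO than to WT for most genes that had differed strongly between the genotypes at the earlier times. To place each library without use of the 34 h groups, 1407 genes were taken that differed at least 2-fold between KO and WT over the 6 earlier times and had at least 10 CPM there. On a log2 scale where 0 is the WT mean and 1 the KO mean of those times, the median position was -0.07 for WT replicate 2 and 0.06 for replicate 3. It was 0.93, 0.85 and 0.85 for KO replicates 1, 2 and 3. WT replicate 1 lay at 0.80, with a middle 50% of genes from 0.42 to 1.13, and 991 genes (70.4%) lay past the midpoint. For WT replicates 2 and 3 these were 10 and 14 genes.

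This placement depended on the direction and the size of the difference. WT replicate 1 reached a median position of 0.93 for the 891 genes that were 2- to 4-fold higher in KO and 0.87 for the 128 that were 4- to 8-fold higher. For the 17 genes at least 8-fold higher in KO it was 0.38. Among genes lower in KO it was 0.49 for 333 genes of 2- to 4-fold, 0.27 for 28 genes of 4- to 8-fold and 0.23 for 10 genes of 8-fold or more. The library also held levels seen in neither genotype. Of the 1567 genes far above its group, 827 (52.8%) were at least 2-fold higher in KO over the earlier times, against 10.2% of all genes, and 1059 (67.6%) exceeded all the other 41 libraries. Of the 619 far below, 88 (14.2%) were at least 2-fold lower in KO, against 4% of all genes, and 481 (77.7%) lay under all the other 41. Genes chosen for a distance from their group are more likely to lie at such an extreme. For KO replicate 1, chosen the same way, 39 genes lay above and 5 below its group, and 6 of these lay beyond all the other 41. What set WT replicate 1 apart was not tested. Results are given with all libraries and without it, or as what both fits share.

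**Figure D1:**
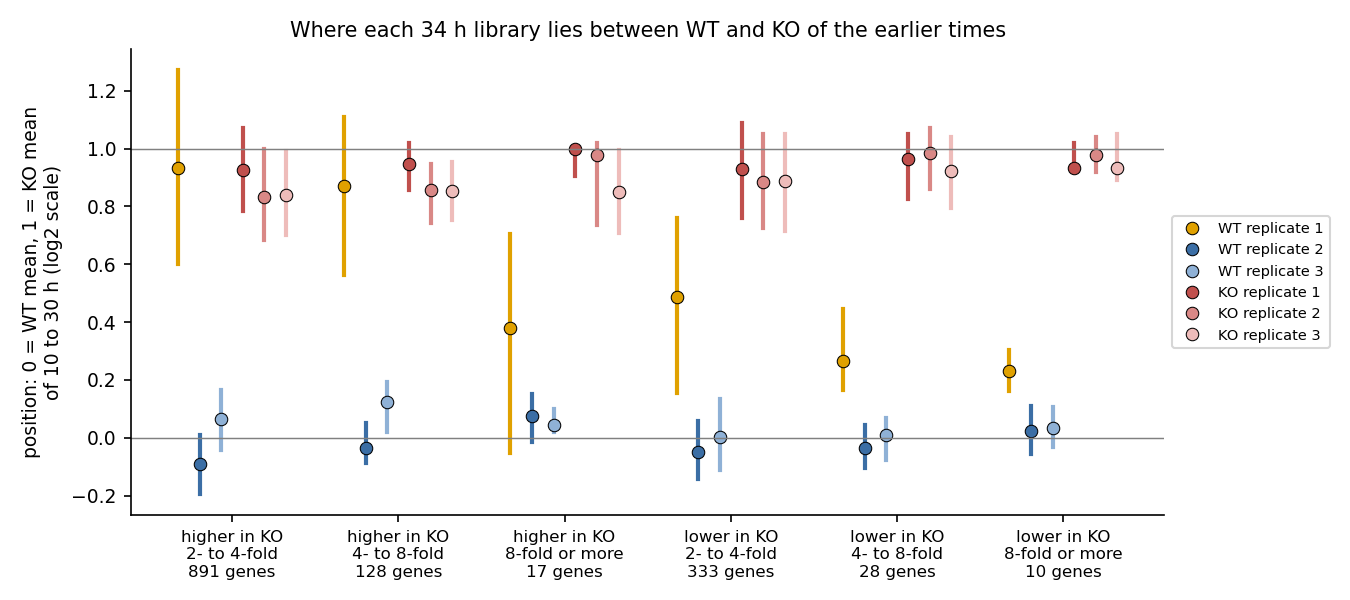
Position of each of the 6 libraries at 34 h (vertical axis, no unit: 0 is the WT mean and 1 the KO mean of the 6 earlier times, on the log2 scale), for 6 groups of genes along the horizontal axis set by the direction and size of the difference between KO and WT at those times. Points are medians over genes and bars run from the lower to the upper quartile; WT replicate 1 (gold) lies at 0.93 for genes 2- to 4-fold higher in KO and at 0.23 for genes at least 8-fold lower.

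KO and WT cells differed in most measured genes at 34 h when the spread was estimated over the whole series. With all libraries, 8352 of 13776 genes (60.6%) were called, which means an adjusted p under 0.05 by edgeR's quasi-likelihood test, with 3882 higher and 4470 lower in KO. Without WT replicate 1, 10422 genes (75.7%) were called, 5287 higher and 5135 lower. Both fits called 7574 genes (55.0%) in the same direction, 3598 higher and 3976 lower in KO. These were 90.7% of the calls with all libraries and 72.7% of the calls without that replicate, and 32 genes were called in opposite directions. The 3 KO values lay all above the 3 WT values for 3134 genes and all below for 3060, together 45.0% of genes. Without WT replicate 1, with 3 values against 2, these were 5738 and 5645, together 82.6%. Of the 6194 genes apart with all libraries, 5636 were also called in both fits in 1 direction.

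Most differences were modest, and a smaller group was large. Across the measured genes, the absolute log2 fold change had a median of 0.40 with all libraries and of 0.52 without WT replicate 1. With all libraries 1785 called genes differed at least 2-fold, 828 higher and 957 lower in KO. At 4-fold there were 157 higher and 183 lower, and at 8-fold 45 and 52. Without WT replicate 1 the 2-fold genes numbered 2904, with 1799 higher and 1105 lower. At 4-fold there were then 338 higher and 183 lower, and at 8-fold 69 and 53.

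The genes that were higher in KO were thus the ones whose number turned on WT replicate 1. Without it 458 genes differed at least 2-fold and were called, yet were not called with all libraries. Of these 434 were higher in KO, with a median log2 fold change of 1.32 without the replicate and 0.32 with it. In 425 of the 434 the level of WT replicate 1 was above the KO mean. The choice of these genes favours such a level, since their call was lost when that replicate was added. The split also depended on the scaling. With all libraries 46.5% of the called genes were higher in KO, and 45.5% when TMM was run with the 2 left-out genes kept. With library totals in place of TMM it was 48.9% with both genes left out and 22.4% with both kept. With totals and both genes kept, the midpoint of all genes moved to -0.31 on the log2 scale, from -0.03, so directions under that scaling are relative to this shift.

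The test drew its estimate of spread from all 42 libraries. In a fit of the 6 libraries alone, where WT replicate 1 weighs more on the estimate, 3018 of 13763 genes were called, which is not most genes. Without that replicate 10061 of 13764 were called. With the replicate numbers as pairs in those 6 libraries 1517 genes were called, 759 with a higher and 758 with a lower level in KO. Without replicate 1 the correlation between same-numbered samples at 34 h was 0.0513, so this pairing rested on replicate 1.

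**Figure D2:**
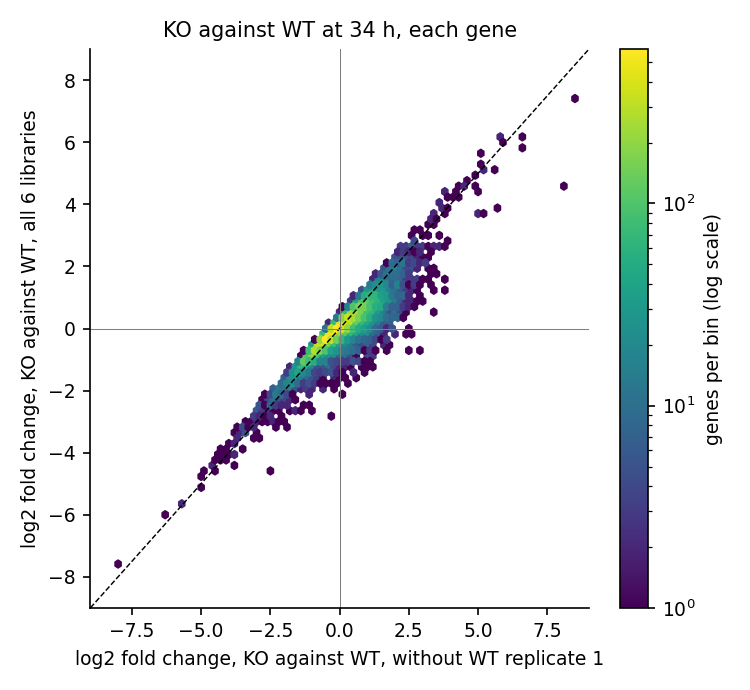
Log2 fold change of KO against WT at 34 h for each of 13776 genes, without WT replicate 1 (horizontal axis) and with all 6 libraries (vertical axis); colour gives the number of genes per bin on a log scale and the dashed line marks equal values. Genes higher in KO spread below the line, and called genes at least 2-fold higher number 1799 without the replicate and 828 with it, while genes lower in KO lie closer to it (1105 and 957).

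The highest fold change among genes with at least 10 CPM, ranges that did not overlap and calls in both fits was that of ENSRNOG00000043866. This gene was left out of the scaling for its large share of the KO counts. Its difference was thus known beforehand, and its test adds no separate evidence. Its level was 233009, 188678 and 197897 CPM in the KO replicates and 2369, 749 and 443 CPM in the WT replicates. The KO libraries lay within a narrow band far above WT, and WT replicate 1 was the highest WT library. The log2 fold change was 7.44 (SE 0.58, adjusted p 1.33e-12 by edgeR) with all libraries and 8.44 (SE 0.58, adjusted p 8.15e-15) without WT replicate 1. At the earlier times WT libraries had 253 to 1810 CPM with a median of 297. ENSRNOG00000030478, the other gene left out of the scaling, had 27356, 22337 and 24605 CPM in KO and 785, 381 and 162 CPM in WT.

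ENSRNOG00000046548 followed, with 52.9, 55.0 and 55.9 CPM in KO and 0.698, 0.926 and 1.02 CPM in WT. Its KO values differed by little and WT replicate 1 was the lowest of all 6. Its log2 fold change was 5.95 (SE 0.11, adjusted p 6.43e-29 by edgeR) and 5.83 without WT replicate 1. In this gene the replicate that stood apart kept the WT level, as the other WT libraries did at every time, where the highest was 1.31 CPM.

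At the other end stood ENSRNOG00000001571, with 0.689, 0.381 and 0.714 CPM in KO and 28.7, 47.9 and 43.4 CPM in WT. The KO values rested on 16 to 36 counts per library. WT replicate 1 was the lowest WT library and still far above every KO library. The log2 fold change was -6.05 (SE 0.24, adjusted p 1.73e-19 by edgeR), and -6.24 without WT replicate 1. ENSRNOG00000003388 was next and far better covered, with 762 to 854 counts per KO library and levels of 19.2, 18.1 and 16.9 CPM in KO. In WT it had 276, 420 and 406 CPM, again with replicate 1 lowest and no overlap. Its log2 fold change was -4.34 (SE 0.11, adjusted p 3.02e-25 by edgeR), and -4.51 without WT replicate 1. In all, 4115 genes met the criteria from which these 4 were taken, 2108 higher and 2007 lower in KO.

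**Figure D3:**
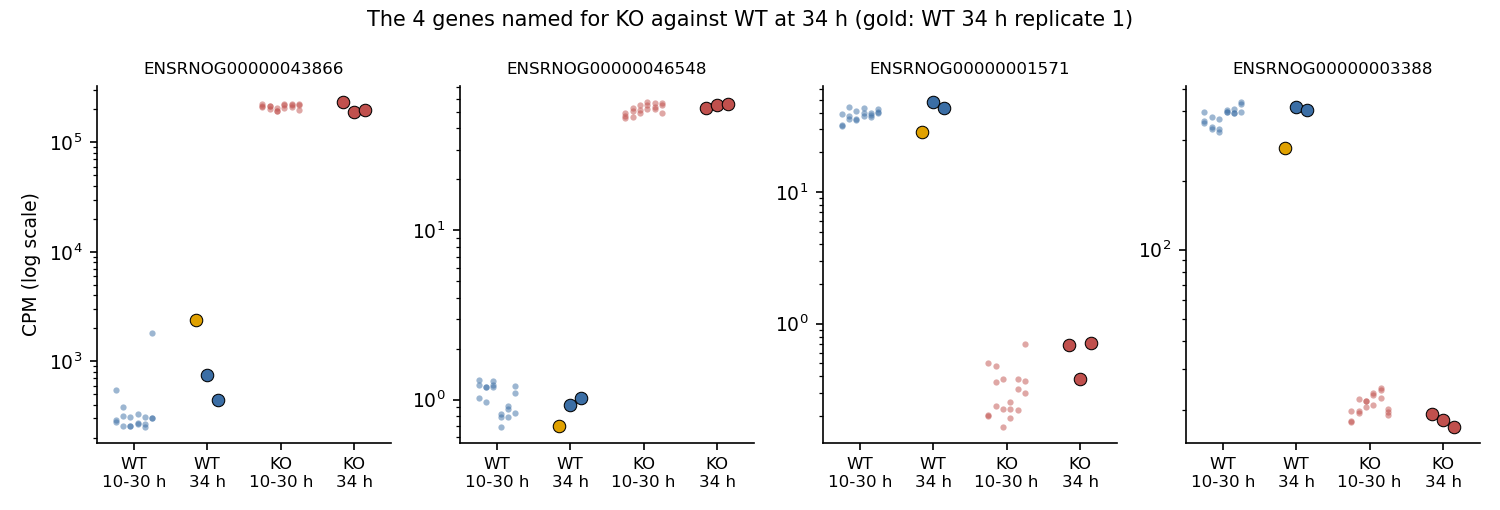
CPM (vertical axes, log scale) of the 4 genes in every library: large points are the 3 replicates of each genotype at 34 h, small points the 18 libraries of each genotype at 10 to 30 h, ordered by time. In each gene the KO and WT libraries form bands that do not overlap; WT replicate 1 at 34 h (gold) is the highest WT library for ENSRNOG00000043866, at 2369 CPM, and the lowest WT library of 34 h for the other 3 genes.

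The balance of directions changed with abundance. Genes were split into 5 groups of like size by their mean CPM over all 42 libraries. In the group of lowest level, from 0.12 to 4.88 CPM, 52.2% of genes were called with all libraries, and in the highest, from 88.7 CPM, 66.9% were. Without WT replicate 1 these shares were 58.0% and 86.0%. The calls of the most abundant group were mostly lower in KO, and 39.7% were higher with all libraries and 39.3% without WT replicate 1. In the second lowest group, from 4.88 to 18.2 CPM, 52.6% and 59.9% were higher. In the group of lowest level these were 43.9% and 52.2%, so the share did not change steadily with abundance in either fit. Large differences were most frequent among scarce genes, with 499 genes at least 2-fold higher and 427 lower in the group of lowest level, and 195 and 201 in the most abundant, without WT replicate 1. With all libraries these were 316 and 436, and 82 and 132. The median absolute log2 fold change was 0.73 in the group of lowest level and 0.47 in the most abundant without WT replicate 1, and 0.64 and 0.34 with it.

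Most of the large differences at 34 h were also present earlier. Of 1543 genes that were called and at least 2-fold different in both fits, 776 (50.3%) were at least 2-fold different in the same direction at all 6 earlier times. These were 421 genes higher and 355 lower in KO. A further 599 (38.8%) reached 2-fold at 1 to 5 of the earlier times, and 168 (10.9%) at none of them. The direction was that of 34 h at all 6 earlier times for 1434 genes (92.9%) and the opposite at all 6 for 3 genes. A set of 19 genes stayed under 1.5-fold at every earlier time, 11 of them higher and 8 lower in KO at 34 h.

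The size of the KO effect at 34 h was within the range of the other times only when WT replicate 1 was left out. The median absolute log2 fold change over genes was 0.47 to 0.53 at the 6 earlier times. At 34 h it was 0.52 without that replicate and 0.40 with it. The number of genes at least 2-fold apart, called or not, was 2677 to 3109 at the earlier times, and 2967 without and 1837 with WT replicate 1 at 34 h. Over the 13776 genes, which are not independent replicates, the effect at 34 h correlated at 0.888 with the mean effect of the earlier times without WT replicate 1 and at 0.752 with it. Each earlier time correlated at 0.912 to 0.966 with the mean of the other earlier ones. These times share no libraries with 34 h.

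**Figure D4:**
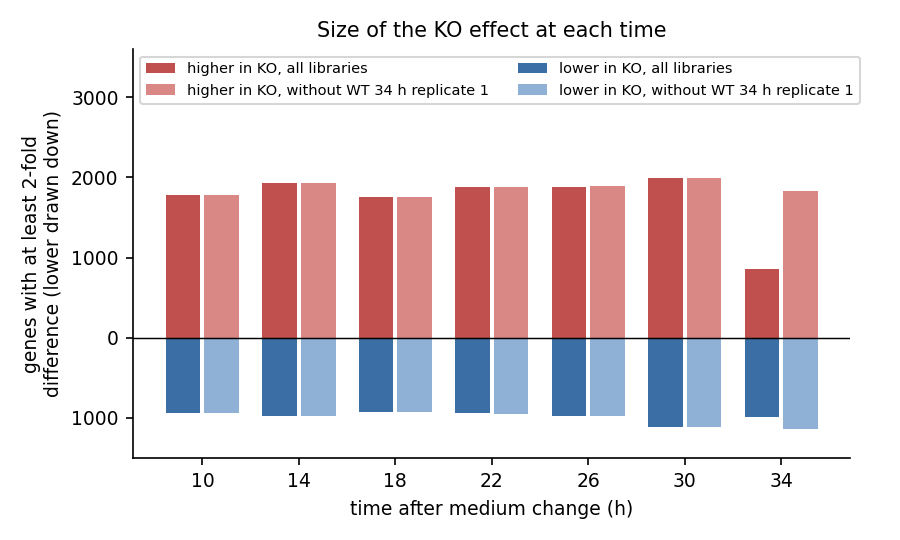
Number of genes with at least 2-fold difference between KO and WT, called or not (vertical axis, genes lower in KO drawn downwards), at each time after the medium change (horizontal axis, h), from the fit of all libraries and from the fit without WT replicate 1 at 34 h. At 34 h the number higher in KO is 851 with all libraries and 1833 without that replicate, against 1753 to 1996 at the earlier times in the latter fit.

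Whether the KO minus WT effect at 34 h differed from that at the other times was tested directly. The test took the KO minus WT difference at 34 h less the mean difference of the 6 earlier times. With all libraries 6423 genes (46.6%) were called by edgeR, 2708 with a more positive effect at 34 h and 3715 with a more negative one. Without WT replicate 1, 5673 genes (41.2%) were called, 2728 more positive and 2945 more negative. Both fits called 4032 genes (29.3%) in 1 direction, 1938 more positive and 2094 more negative. The sizes differed between the fits. Called differences of at least 2-fold numbered 1134 with all libraries, 957 of them more negative, and 358 without WT replicate 1, of which 192 were more negative. With library totals in place of TMM, the 2 abundant genes left out and WT replicate 1 absent, 61.7% of the calls were more positive, against 48.1%.

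The 4032 genes called in both fits fell into classes whose sizes depended on WT replicate 1. Without it, 1717 (42.6%) kept the direction of the earlier times with a smaller difference at 34 h, and 1037 (25.7%) kept it with a larger one. The effect had the opposite sign at 34 h in 955 genes (23.7%), and for 323 (8.01%) KO and WT had not been called different over the earlier times. The classes used the sign and size of the estimate at 34 h and required no call there. An opposite sign can thus mean a lost difference as well as a reversed one. With all libraries, 1236 (30.7%) were smaller, 1000 (24.8%) larger, 1382 (34.3%) opposite and 414 (10.3%) not called before. A smaller difference in the same direction was thus more frequent than a larger one in both fits, and the opposite sign was the most frequent class only with all libraries.

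The genotype in which levels had moved between the earlier times and 34 h also depended on that library. Without it, 58.3% of all genes were called for a change to 34 h in KO and 25.4% in WT, where 34 h then rests on 2 libraries against 3 in KO. With all libraries the shares were 42.4% in KO and 43.9% in WT. Of the 4032 genes, 2592 (64.3%) were called for a change in KO and not in WT without WT replicate 1, 385 (9.55%) in WT and not in KO, and 939 (23.3%) in both. With all libraries these were 1680 (41.7%), 922 (22.9%) and 1369 (34%). The median size of the change over the 4032 genes was 0.36 on the log2 scale in KO in either fit. In WT it was 0.13 without WT replicate 1 and 0.22 with it, lower than in KO both ways. The 4032 genes were chosen by calls in both fits, which leaves out genes whose call rested on WT replicate 1. Over all 13776 genes the median was 0.207 in KO in either fit. In WT it was 0.128 without WT replicate 1 and 0.201 with it, close to KO.

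ENSRNOG00000004554 showed a rise in KO cells at the end of the series. Its level at 34 h was 38.0, 39.4 and 38.2 CPM in KO and 1.97, 3.69 and 4.33 CPM in WT. The 3 KO libraries were alike and above all WT libraries, and WT replicate 1 was the lowest. At the 6 earlier times KO libraries had 4.78 to 21.4 CPM with a median of 6.44. KO replicates 2 and 3 at 30 h were the highest of these, with 21.4 and 15.3 CPM, while KO replicate 1 at 30 h had 6.39 CPM. WT libraries had 2.78 to 8.51 CPM at the earlier times. The effect at 34 h exceeded that of the earlier times by 2.90 on the log2 scale (SE 0.29, adjusted p 7.13e-09 by edgeR), and by 2.64 (adjusted p 1.53e-08) without WT replicate 1.

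ENSRNOG00000019823 had a larger difference that rested on 1 library. Its KO levels at 34 h were 4.25, 3.31 and 59.5 CPM, and its WT levels 1.32, 1.82 and 1.13 CPM. Single libraries of either genotype were nearly as high at other times, up to 52.5 CPM in KO and 47.7 CPM in WT, against medians of 5.67 and 2.11 CPM. The effect at 34 h exceeded that of the earlier times by 3.78 (SE 1.34, adjusted p 0.0208 by edgeR), and by 3.71 (adjusted p 0.0499) without WT replicate 1. Without KO replicate 3 it was 1.22 (adjusted p 0.478), which was not called.

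Among genes with at least 10 CPM and calls in both fits, the most negative differences were those of ENSRNOG00000005413 and ENSRNOG00000029707, and both were smaller without WT replicate 1. ENSRNOG00000005413 had 72.4, 49.1 and 57.8 CPM in KO at 34 h, below the 96.7 to 214 CPM of the earlier KO libraries. In WT it had 216, 12 and 24.7 CPM, so that replicate 1 was above all KO libraries of 34 h and the other 2 were below them. WT libraries of the earlier times had 9.67 to 32.3 CPM. The difference was -3.75 (SE 0.56, adjusted p 3.34e-06 by edgeR) with all libraries and -1.51 (adjusted p 1.01e-05) without WT replicate 1. KO against WT at 34 h was not called with all libraries (log2 fold change -0.49, adjusted p 0.385) and was higher in KO without that replicate (1.75, adjusted p 9.76e-08).

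ENSRNOG00000029707 had 58.6, 28.6 and 35.6 CPM in KO and 174, 12 and 14.6 CPM in WT at 34 h. WT replicate 1 was again above every KO library, and the other WT libraries were below every KO library. At the earlier times KO libraries had 53.8 to 83.9 CPM and WT libraries 5.59 to 14 CPM. The difference was -3.65 (SE 0.58, adjusted p 9.32e-06 by edgeR), and -1.31 (adjusted p 1.61e-04) without WT replicate 1. KO replicates 2 and 3 were below every earlier KO library, and KO replicate 1 was within their range. In both genes WT replicates 2 and 3 stayed within or just above the earlier WT range. In all, 3379 genes met the criteria from which these 4 were taken.

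**Figure D5:**
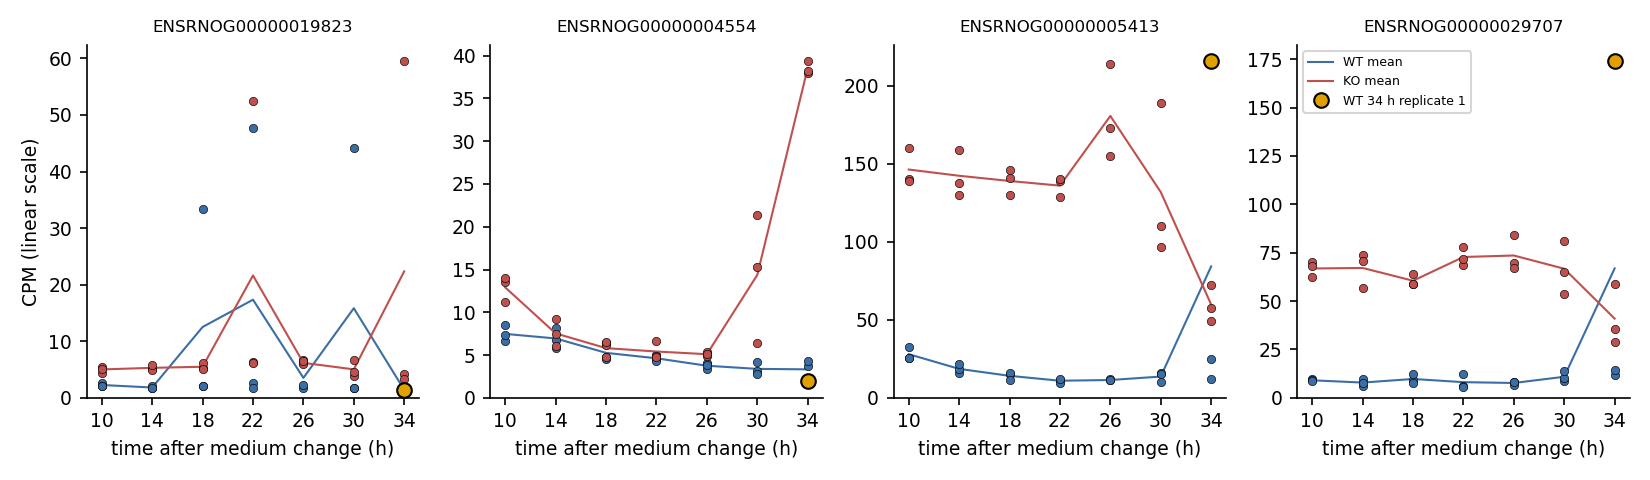
CPM (vertical axes, linear scale) against time after the medium change (h) of the 4 genes named for the difference of the KO effect at 34 h from the other times, 2 in each direction; points are libraries and lines join group means (n = 3). KO libraries of ENSRNOG00000004554 rise to 38.0 to 39.4 CPM at 34 h, 1 KO library of ENSRNOG00000019823 reaches 59.5 CPM, and WT replicate 1 at 34 h (gold) lies above the 34 h KO libraries for ENSRNOG00000005413 and ENSRNOG00000029707.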

How the data were processed

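RNA of WT and KO GH4C1 cells was sequenced on an Illumina HiSeq from strand-specific libraries, with paired 150 bp reads, per the labels. The authors deposited whole-number counts per gene and library, not normalized, 1 table per genotype. They were made with featureCounts, per the submitters' processing notes. The aligner, genome build, annotation, version and strand setting are not given in the sources used here. Reads of overlapping, antisense or near-identical genes may therefore be shared between genes.

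The tables were joined on 13776 identifiers. In R 4.3.3, edgeR 4.0.16 fitted a mean for each of 14 groups to all 42 libraries with TMM scaling. Library sizes and scaling factors were computed after ENSRNOG00000043866 and ENSRNOG00000030478 were left out. Its expression filter removed 0 genes. The quasi-likelihood F test gave p-values, adjusted by the Benjamini-Hochberg method over all genes, with calls at 0.05. Each fit was repeated without WT T34 replicate 1. Scripts were tested on simulated data in which few genes changed and no library stood apart. That setting lacks the broad differences and the outlying library of the real data. No 2 replicates at 34 h agreed within sampling noise.

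Genes named for KO against WT had at least 10 CPM on average at 34 h, calls in both fits and ranges apart; those for the difference from other times had at least 10 CPM and calls in both fits with the same sign. The 2 highest and 2 lowest values of the fit with all libraries are printed, since no identifier matched a symbol. The gene lists and markers drawn up for symbols were for that reason not analysed here.

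Samples with the same replicate number at 34 h deviated together when replicate 1 was included. The correlations were 0.299, 0.184 and 0.174 over 13295 genes, and the numbers were treated as pairs in an alternative fit. Pairs 2 and 3 alone gave 0.0513, within the -0.0898 to 0.103 of the 18 pairs at the other times, of which 1 was over 0.1. The 3 correlations are therefore not separate evidence of pairing. Other alternatives were other scalings and filters, DESeq2 1.42.0, a 1.5-fold minimum change, the 6 libraries alone and leaving out each library. The comparison, its rules and its lists were chosen with earlier results of these data known.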

Additional observations from a re-analysis of the deposited data

Results flagged for a closer look

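The KO minus WT effect at 34 h differed from its mean at the 6 earlier times by a direct edgeR test. This held for 6423 genes with all libraries and for 5673 without WT T34 replicate 1. Among the genes named for this difference, it was 3.78 on the log2 scale for ENSRNOG00000019823, where 1 KO library was high. It was 2.90 for ENSRNOG00000004554, where all 3 KO libraries at 34 h were above every earlier KO library. It was -3.75 for ENSRNOG00000005413 and -3.65 for ENSRNOG00000029707, and without WT T34 replicate 1 it was -1.51 and -1.31.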

How the results depend on the processing

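Of 234 values recomputed under alternatives, 208 stayed on the same side of the threshold or within the set margin, 25 moved, 1 lost its call and 0 reversed. The margin for counts was 1.5 times, and for shares the binomial interval of the main value. Some values could not change. The expression filter removed 0 genes, so leaving it out repeated the main fit. The named genes were chosen by calls in both fits, which fixed their outcome without WT T34 replicate 1. The lost call was ENSRNOG00000019823 without KO T34 replicate 3 (1.22, adjusted p 0.478 by edgeR). Genes called for KO against WT numbered 3018 with the 6 libraries alone (5063 at an unadjusted p under 0.05), 2278 with a 1.5-fold minimum and 1517 with the replicate block in the 6 libraries alone. With the replicate block over all 42 libraries 8405 genes were called, and 6422 for the difference from the other times. Neither of these counts moved by over 1.5 times from the main fit. The share of calls higher in KO was 48.9% with library totals (2 genes left out), 22.4% with totals and both genes kept, 47.8% with the 6 libraries alone, 50.7% with these but no WT T34 replicate 1, and 50% with the block in the 6. Without that replicate it was 50.5% by DESeq2 and 55.5% with totals. Genes at least 2-fold apart numbered 839 at a minimum of 10 CPM, 1099 with the block in the 6 libraries, and, without WT T34 replicate 1, 2913 with the T34 libraries alone, 2915 by DESeq2 and 2961 with totals. The share of more positive differences from the other times was 40.4% with TMM and both genes kept, 48.4% and 48.1% with totals without and with both genes, and 43.8% at 10 CPM. Without WT T34 replicate 1 it was 47% by DESeq2 and 61.7% with totals. Leaving out each library gave 45.7% to 50.7% of calls higher in KO, 1681 to 2904 genes at least 2-fold apart, and 41.1% to 48.1% more positive differences. The highest count of 2-fold genes came without WT T34 replicate 1. At 10 CPM 9822 genes were tested in place of 13776, and those left out had lower levels at 34 h. The cause was not tested for any of the values that moved. Alternatives that join DESeq2 or totals with the removal of WT T34 replicate 1, and the block in the 6 libraries, were chosen after seeing the data. Values of scarce genes rest on few counts, such as 16 to 36 per KO library for ENSRNOG00000001571.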
